A study of Mus musculus with 46 samples.

Results

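Wild-type DN3 thymocytes were compared with DN3 thymocytes of mice that express LMO2 in T cells, gene by gene, from read counts of RNA sequencing. The comparison rests on 6 libraries, 3 per genotype, out of 46 samples in the series, of which 40 were RNA libraries with counts. The libraries were chosen by their titles and genotype labels alone, and all genes of the table entered. Both groups were sorted DN3 primary thymocytes of the C57BL/6 strain from mice kept under specific-pathogen-free conditions. The control group carried the genotype label wild type. The other group carried the label hCD2-LMO2 knock-in, and the series title calls these mice transgenic, the word used below. The name hCD2 refers to the human CD2 gene, whose control elements drive expression in T cells. No other allele or agent is named in either group, and the labels leave out the age and sex of the mice. The labels do not say whether the libraries came from separate mice, so every p-value below measures the spread between these libraries, which may be technical in part. The wider series covers T cells from early thymic precursors to the spleen and also holds chromatin immunoprecipitation of LMO2, which was not used here.

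LMO2 is a small protein with LIM domains that does not bind DNA by itself. It bridges a GATA factor and a pair of basic helix-loop-helix proteins, one of them TAL1 or LYL1 and the other an E protein, with LDB1 holding the complex together. Blood stem cells and the earliest thymic precursors express Lmo2, and it is shut off as cells commit to the T lineage. Its lasting expression can drive T-cell leukaemia. DN3 cells lack CD4 and CD8, have lost CD44 and carry CD25, the product of Il2ra. At this stage Notch signalling is high, the Rag proteins rearrange the T-cell receptor beta gene, and a productive chain pairs with pre-TCR alpha, encoded by Ptcra, so that the cell can pass beta-selection.

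Levels are given as CPM, read counts scaled to a common library size. A value after ± is the SD over 3 libraries for a level and the standard error for a log2 fold change. Lmo2 (identifier 16909) stood at 0.308, 0.236 and 0.225 CPM in the wild-type and 27.4, 21.6 and 20.5 CPM in the transgenic libraries. Every transgenic library was far above every wild-type library. The gene rose by 6.47 ± 0.24 on the log2 scale, with an adjusted p of 9.99e-07 in edgeR's quasi-likelihood test (Benjamini-Hochberg), the test used throughout. These reads were assigned to mouse Lmo2. The species of the transgene's own LMO2 sequence is unstated in the labels.

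The libraries held 24493397 to 28439842 reads. Correlations of log CPM were 0.985 to 0.995 within a genotype and 0.920 to 0.942 between genotypes. Of the genes behind the labelled surface phenotype, Il2ra was 1189 ± 106 CPM in wild type and 1503 ± 22.4 CPM in transgenic cells, and Cd44 was 3.38 ± 0.662 and 3.5 ± 1.06 CPM. Some other markers of the stage were not alike in the genotypes. Ptcra went from 210.3 ± 14.6 to 24.4 ± 13.1 CPM, Rag2 from 128 ± 8.37 to 16.6 ± 6.76 CPM and Spib from 49 ± 6.86 to 10.1 ± 1.72 CPM. Among 18 tested stage markers 8 fell and 5 rose, with a median log2 fold change of -0.04. Over all genes tested 22.2% were lower and 23.4% higher. Among markers of other cells, the summed level was 28.4 to 39.8 CPM in wild type and 11.5 to 17.5 CPM in transgenic cells for 13 B-cell genes. Most of it was Cd79b, at 35.2, 25.4 and 34.3 CPM in the wild-type and 7.94, 10.4 and 12.9 CPM in the transgenic libraries. Of 5 tested B-cell genes, 1 fell and 4 did not pass. For 20 myeloid genes the sums were 18.2 to 20.02 and 11.4 to 14.4 CPM. Of these, Lyz2 was 8.32, 11.2 and 10.4 CPM in wild type and 1.77, 2.22 and 0.887 CPM in transgenic cells. Of 8 tested myeloid genes, 3 fell, 1 rose and 4 did not pass. For 16 dendritic-cell genes the sums were 929 to 1064 and 348 to 542 CPM, with Ly6d, Ccr9 and Bst2 holding most of them and Clec9a, Siglech and Xcr1 at 23 reads or fewer in a group. In 15 NK and innate lymphoid genes the sums were 503 to 571 and 432 to 523 CPM. In 11 erythroid genes they were 242 to 265 and 222 to 260 CPM, and in 12 thymic stroma genes 166 to 197 and 222 to 341 CPM. Those of 15 mast-cell genes were 78.6 to 135 and 768 to 1299 CPM and are described with Kit and Cpa3. What part these markers have in the results was not tested. In bulk RNA, fewer cells of a type and less RNA per cell cannot be told apart.

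The 2 genotypes differed over a large part of the transcriptome. Of 19521 genes, 12037 had enough reads to be tested, and 5497 of them (45.7%) passed an adjusted p of 0.05. Higher in transgenic cells were 2822 genes (23.4%), and 2675 (22.2%) were lower. The median over all genes tested was -0.03 on the log2 scale. Under upper-quartile scaling, which moved the fold changes by a median of -0.12, the split was 2267 higher and 3668 lower. Most changes were modest: 1966 were under 1.5-fold and 1595 between 1.5-fold and 2-fold, against 1183 between 2-fold and 4-fold and 753 of 4-fold or more. Tested against a 2-fold change itself, 909 genes (7.55%) passed, 495 higher and 414 lower. The 3 libraries of each genotype did not overlap in 6943 genes (57.7%). At a mean of 100 CPM or more, 966 of 2564 genes were higher and 336 lower, whereas under 1 CPM 102 of 879 were higher and 218 lower. Leaving out 1 library gave 3802 to 6185 changed genes, and a fit of all 40 RNA libraries together gave 2644.

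**Figure D1:**
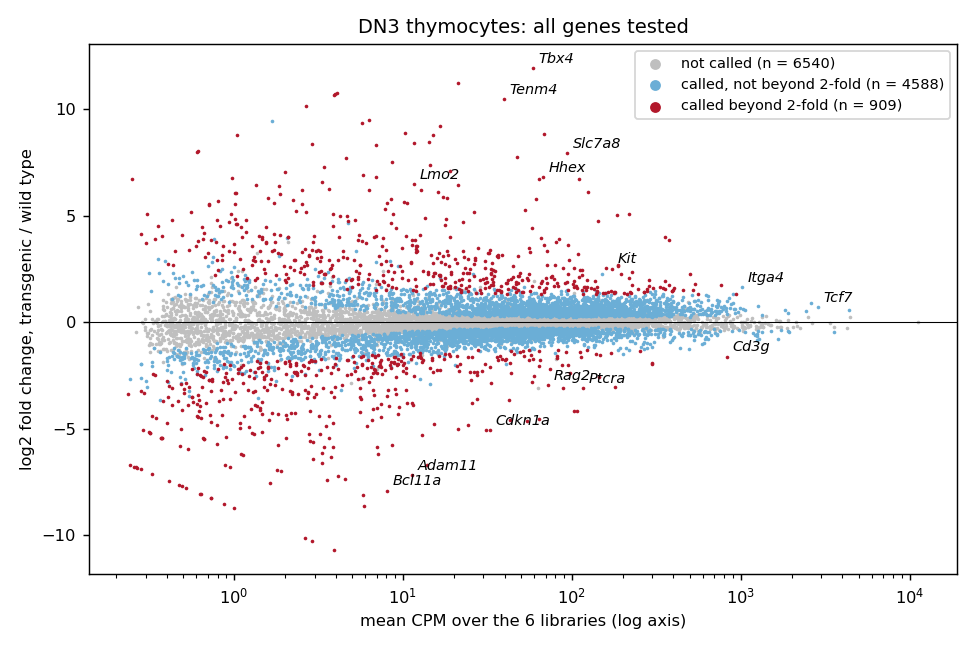
Each point is 1 of the 12037 genes tested, with its mean CPM over the 6 DN3 libraries on a log axis and its log2 fold change, transgenic over wild type. Red points (909) passed the test against a 2-fold change, blue points passed only the test against no change, grey points passed neither, and the named genes include Lmo2 at 6.47 and Cdkn1a at -5.08.

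Among genes of at least 20 CPM in the higher group, the largest increase was in Tbx4, a T-box transcription factor known from limb and lung development. Tbx4 was at 0, 0.0394 and 0.0376 CPM in the wild-type and 99.2, 115 and 142 CPM in the transgenic libraries, which is 2 reads in all for the wild type. Thsd4, a secreted protein with thrombospondin repeats, was at 0, 0.0394 and 0 CPM in the wild-type and 25.9, 46.9 and 55 CPM in the transgenic libraries, with 1 wild-type read. Both were near 0 in all 3 wild-type libraries and above 20 CPM in all 3 transgenic ones. Tenm4, a teneurin transmembrane protein, was at 0, 0.0394 and 0.113 CPM in the wild-type and 120.4, 62.5 and 56.2 CPM in the transgenic libraries and rose by 10.47 ± 0.59 on the log2 scale. Olfm5, an olfactomedin-like gene, rose by 8.84 ± 0.56, from 0.295 ± 0.0563 to 137 ± 74.8 CPM. Acox2, a peroxisomal oxidase of branched-chain lipids, stood at 0.116, 0 and 0.0751 CPM in the wild-type and 28.8, 28.4 and 33.4 CPM in the transgenic libraries and rose by 8.78 ± 0.36. Slc7a8, an amino acid transporter, rose by 7.94 ± 0.18, from 0.756 ± 0.127 to 187 ± 24.8 CPM. Also among the 15 largest increases were Faxc, Ubqlnl, Gpr82, the phospholipid flippase Atp8a2, the tight-junction gene Cldn2 and the C-type lectin Clec4e. In each of the 15 the genotypes did not overlap, which the rule required. In edgeR's quasi-likelihood test (Benjamini-Hochberg) the adjusted p was 3.07e-07 for Tbx4, 1.84e-05 for Tenm4, 4.66e-05 for Olfm5, 1.37e-06 for Acox2 and 1.45e-07 for Slc7a8.

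Another 2 of the 15 are transcription factors of early precursors. Hhex, a homeobox factor of blood stem and progenitor cells, stood at 0.924, 0.709 and 1.92 CPM in the wild-type and 123, 118 and 164 CPM in the transgenic libraries. Its lowest transgenic library was far above its highest wild-type library. It rose by 6.82 ± 0.32, with an adjusted p of 6.67e-06 in edgeR's quasi-likelihood test (Benjamini-Hochberg). Lyl1, whose helix-loop-helix protein pairs with LMO2, stood at 0.347, 0.709 and 2.52 CPM in the wild-type and 95, 110.2 and 176 CPM in the transgenic libraries and rose by 6.72 ± 0.60, with an adjusted p of 0.000212 in the same edgeR test. To set these levels against normal development, all 40 RNA libraries were scaled together. On that scale the single wild-type DN1 library, the earliest stage measured, held 39.8 CPM of Hhex and 40.1 CPM of Lyl1. Transgenic DN3 cells held 125 ± 23.9 and 118 ± 40.1 CPM. Of the 15 genes, 9 were under 1 CPM in every wild-type group measured, Tbx4, Thsd4, Olfm5, Acox2, Cldn2 and Clec4e among them. The rule favours genes near 0 in wild-type DN3, and no share over all genes was taken. That count is therefore not a trait of these genes.

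Start-site windows are printed for 3 genes with large changes, to show E-box and GATA words, the motif types of the proteins that LMO2 bridges. Each window runs from 250 bases before to 50 bases after an annotated start, 5′ to 3′ on the gene's strand, from RefSeq on GRCm38.p6. Capitals mark the E-box CAGNTG and the GATA word AGATAA, its variant AGATAG, and the forms starting with T, which are TGATAA and then TGATAG, each on either strand. The Tbx4 window lies on chromosome 11 on the plus strand and Olfm5 on chromosome 7 on the minus strand, both genes that rose. Cdkn1a, a gene that fell, is on chromosome 17 on the plus strand. It has 2 windows in the table: the first, with 1 E-box and 1 GATA word, is printed, and the other, at chr17:29093519-29093818, holds 2 E-boxes and no GATA word.
Tbx4 chr11:85896515-85896814: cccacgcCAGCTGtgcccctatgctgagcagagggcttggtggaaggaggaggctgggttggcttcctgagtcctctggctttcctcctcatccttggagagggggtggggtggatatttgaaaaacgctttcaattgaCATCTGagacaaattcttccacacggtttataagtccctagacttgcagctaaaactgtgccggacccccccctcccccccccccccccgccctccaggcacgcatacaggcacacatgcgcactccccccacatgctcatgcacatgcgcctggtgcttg
Olfm5 chr7:104164767-104165066: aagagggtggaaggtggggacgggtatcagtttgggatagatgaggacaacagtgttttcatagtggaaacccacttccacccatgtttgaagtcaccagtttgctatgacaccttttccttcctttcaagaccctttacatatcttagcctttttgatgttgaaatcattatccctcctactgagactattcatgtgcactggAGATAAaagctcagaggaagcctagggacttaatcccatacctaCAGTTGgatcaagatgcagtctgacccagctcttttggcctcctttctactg
Cdkn1a chr17:29090729-29091028: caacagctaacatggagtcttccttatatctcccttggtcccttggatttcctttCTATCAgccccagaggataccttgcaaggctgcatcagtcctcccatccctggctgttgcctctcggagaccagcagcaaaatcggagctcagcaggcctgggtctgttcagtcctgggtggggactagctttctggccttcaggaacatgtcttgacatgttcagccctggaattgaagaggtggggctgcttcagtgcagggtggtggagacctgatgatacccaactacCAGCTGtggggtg
The RefSeq table matched 12 of the 15 largest increases and 11 of the 15 largest decreases. An E-box was in 11 of 15 windows (73.3%) of the increases and in 7 of 14 (50%) of the decreases. Windows are not independent, because some genes have more than 1, and the 2 windows of Acox2 overlap and hold the same 2 E-boxes. An E-box was in 51.4% of all 32851 windows of the table and 44.3% of the 12288 windows of genes tested. A GATA word was in 2 of 15 windows (13.3%) of the increases and 4 of 14 (28.6%) of the decreases, against 29.8% of all windows and 18.9% of those of genes tested. These are counts of letters in short windows, and a match is not a binding site.

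Among the largest decreases was Cdkn1a, which encodes p21, an inhibitor of cyclin-dependent kinases. Cdkn1a stood at 72.5, 57.5 and 61.8 CPM in the wild-type and 3.36, 1.74 and 0.54 CPM in the transgenic libraries. It fell by 5.08 ± 0.49 on the log2 scale, with an adjusted p of 0.000276 in edgeR's quasi-likelihood test (Benjamini-Hochberg), and all 3 transgenic libraries were below 4 CPM. Adam11, a disintegrin family gene, stood at 21.4, 22.7 and 23.8 CPM in the wild-type and 0.111, 0.185 and 0.154 CPM in the transgenic libraries and fell by 7.19 ± 0.23, the largest decrease above 20 CPM. Adamtsl2, a secreted matrix protein, fell by 6.70 ± 0.25, from 27.7 ± 4.91 to 0.263 ± 0.0434 CPM. Lrp1, a large endocytic receptor, fell by 5.04 ± 0.34, from 60.6 ± 16.6 to 1.84 ± 0.794 CPM. Aim2, the cytosolic DNA sensor of the inflammasome, stood at 41.4, 41.9 and 40.4 CPM in the wild-type and 2.22, 1.33 and 0.309 CPM in the transgenic libraries and fell by 4.99 ± 0.47. Pld4, an endosomal nuclease, fell by 4.14 ± 0.27, from 203 ± 52 to 11.5 ± 3.57 CPM, and Rab44, a large Rab GTPase, fell by 4.53 ± 0.21, from 123 ± 8.48 to 5.31 ± 1.56 CPM. Cdh1, the gene of E-cadherin, fell by 3.80 ± 0.34, from 48 ± 6.93 to 3.45 ± 1.62 CPM. The rest of the 15 were Arhgap32, H2-Q7, Rps6kl1, Khdc1a, Wdfy4, Tdrd5 and Zfp976. Wild-type DN3 was the highest of all wild-type groups for 10 of the 15, but the rule selected these genes through their wild-type DN3 level. No share over all genes was taken, so the count is not a trait of these genes. Some margins were small: Arhgap32 was 23.6 CPM in wild-type DN3 against 22.4 CPM in the next group. For Cdh1 these were 44.6 and 40.2 CPM. Cdkn1a was 59.5 CPM in wild-type DN3 and at most 22.3 CPM in any other wild-type group, with all RNA libraries scaled together.

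**Figure D2:**
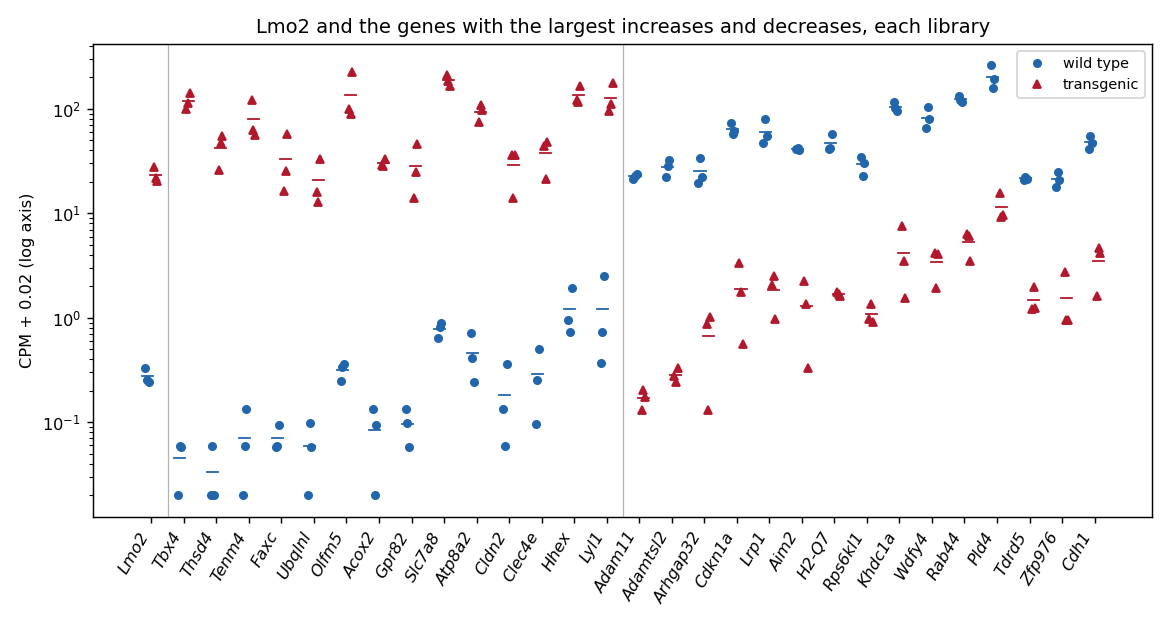
Points are the CPM of single libraries on a log axis (0.02 was added so that 0 can be drawn), wild type as blue circles and transgenic as red triangles, and short lines are means. The panel shows Lmo2, then 14 of the 15 largest increases and the 15 largest decreases, in none of which the genotypes overlap.

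Some genes were essentially silent in one genotype. With 3 reads or fewer over the 3 wild-type libraries and at least 1 CPM in transgenic cells there were 32 genes, and 13 of them reached 5 CPM. The reverse held for 28 genes, of which 6 reached 5 CPM in wild type. Where one genotype had no read at all, a fold is a lower bound, computed against 3 reads over its 3 libraries. Evc and Evc2, neighbouring genes of a ciliary complex in Hedgehog signalling, were at least 209-fold and at least 86-fold higher in transgenic cells. Their transgenic libraries were uneven, at 9.45, 0.962 and 13.9 CPM for Evc and 3.95, 0.407 and 5.67 CPM for Evc2, and without transgenic replicate 3 the bounds were 135-fold and 56.7-fold. Ryr2, a calcium release channel, was at least 205-fold higher, Slc22a4, an organic cation transporter, at least 206-fold, and Plscr2, a phospholipid scramblase, at least 138-fold. In the other direction Duxbl1, a double homeobox gene, was at least 209-fold lower. Ica1 was at least 155-fold and Hoxa3 at least 53-fold lower in transgenic cells. Ifi44, an interferon-inducible gene, stood at 11, 10.4 and 13.7 CPM in the wild-type and 0.0369, 0.037 and 0 CPM in the transgenic libraries. Its transgenic libraries were at or near 0.

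Abundant genes moved too, by smaller factors. The 6 largest gains in mean CPM were in the elongation factor Eef2, the poly(A)-binding protein gene Pabpc1, Tcf7, the integrin chain Itga4, Actb and the adhesion receptor Adgrg1. Tcf7, which encodes the T-lineage factor TCF-1, stood at 2026, 2329 and 2127 CPM in the wild-type and 3926, 3370.4 and 3373 CPM in the transgenic libraries and rose by 0.72 ± 0.12. The transgenic libraries were all above the wild-type ones. Itga4 rose by 1.65 ± 0.31, from 493 ± 245 to 1550.3 ± 99.5 CPM. The 6 largest losses were in Ptma, Hsp90aa1, Cd3g, Thy1, Npm1 and Ppia. Cd3g, a chain of the T-cell receptor complex, stood at 1387, 1118 and 1272 CPM in the wild-type and 413, 440.3 and 378 CPM in the transgenic libraries and fell by 1.62 ± 0.12. Thy1, a surface protein of thymocytes, fell by 0.83 ± 0.14, from 1596 ± 118 to 899.8 ± 135 CPM. The fit of all 40 RNA libraries lost the calls of 9 of these 12 genes and kept those of Pabpc1, Itga4 and Cd3g. The call for Ptma was also lost without transgenic replicate 1. That for Ppia was also lost with the replicate number as a block, without wild-type replicate 1 or 3 and without transgenic replicate 1 or 3, with an adjusted p of up to 0.184 over all alternatives run with edgeR or DESeq2.

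Genes of the LMO2 complex were compared with one another as FPKM, read counts divided by transcript length and sequencing depth, as the authors deposited them. Lmo2 was 0.23, 0.18 and 0.16 FPKM in wild type and 17.4, 13.7 and 13.1 FPKM in transgenic cells. Lyl1 was 0.22, 0.45 and 1.6 and 55.5, 64.4 and 103 FPKM, so that it stood above Lmo2 in every transgenic library. That order holds only for reads assigned to mouse Lmo2, since the species of the transgene's own sequence is unstated. Tal1, the other possible partner, was 0.08, 0.04 and 0.16 and 0.14, 0.03 and 0.01 FPKM and Gata2 was 0, 0 and 0 and 0.01, 0.11 and 0.04 FPKM, both at or near 0 in all 6 libraries. Gata3, the GATA factor of T cells, was 43.3, 37.6 and 42.8 and 70.9, 63.9 and 70.1 FPKM. Ldb1 was 227, 203 and 242 and 175, 151 and 162 FPKM, and the libraries did not overlap.

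Of 19 partners and E-protein genes tested, 11 rose and 6 fell, with a median log2 fold change of 0.44 against -0.03 over all genes tested. Shares of 23.4% higher and 22.2% lower over all genes tested are the background for these and the following counts, all of which leave out Lmo2. Those shares varied with expression: at a mean of 100 CPM or more, 966 of 2564 genes were higher and 336 lower. The background was not matched to the level of the list members, many of which are abundant genes. The fit of all 40 RNA libraries called 10.7% of its genes higher and 7.16% lower, and in it 80 of 92 list counts above 0 were lower. After Lyl1, the E-protein gene Tcf12 rose by 1.05 ± 0.15, Gata3 by 0.85 ± 0.10 and Cbfa2t3, a corepressor of the complex, by 0.89 ± 0.13. Runx1 rose by 0.85 ± 0.13. Genes of the Id proteins, which bind E proteins and keep them off DNA, were lower: Id3 stood at 32.2, 22.2 and 24.4 CPM in the wild-type and 9.23, 11 and 7.37 CPM in the transgenic libraries and fell by 1.51 ± 0.20. Id2 fell by 1.19 ± 0.27, from 7.24 ± 1.02 to 3.17 ± 0.983 CPM. The E-protein gene Tcf4 fell by 0.74 ± 0.13 and Ssbp2, which encodes an LDB1-binding protein, fell by 0.66 ± 0.11. The fit of all 40 RNA libraries lost the calls of Gata3, Cbfa2t3 and Tcf4 and kept those of Lyl1 and Id3. For Ldb1 the change was -0.30 ± 0.10, a call that held in 1 of 6 fits with a library left out (adjusted p up to 0.174 in edgeR's quasi-likelihood test (Benjamini-Hochberg)).

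**Figure D3:**
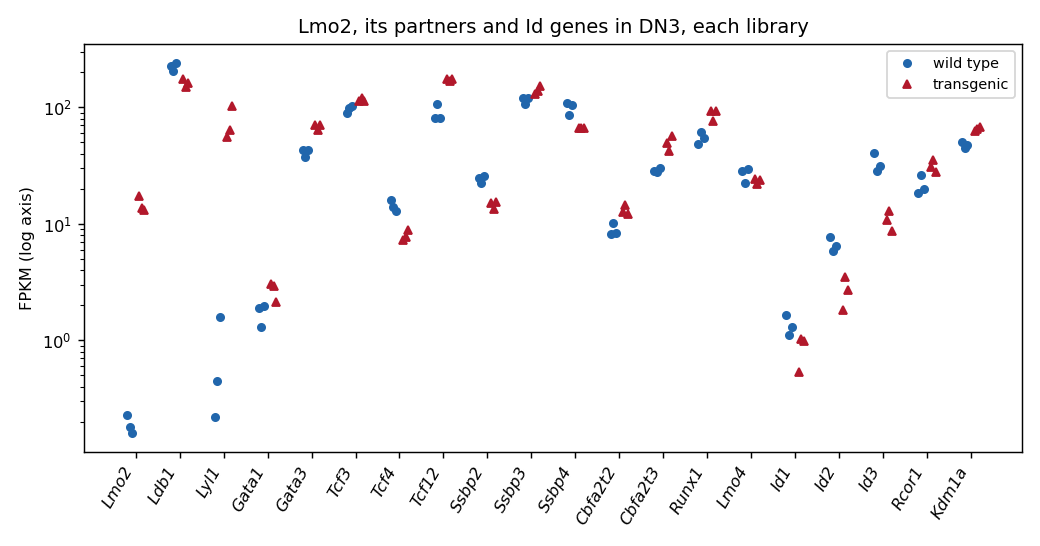
Points are the deposited FPKM of single libraries on a log axis, wild type as blue circles and transgenic as red triangles, for Lmo2, its partners and Id genes of at least 1 FPKM in either group. Lyl1 and Lmo2 are the genes with the widest gap, and Id3 lies lower in the transgenic libraries.

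Progenitor genes moved both ways. Of 14 tested genes of the DN1 and DN2 stages, 6 rose and 4 fell, or 7 without the filter on low counts. Beside Hhex and Lyl1, Kit, the stem cell factor receptor, stood at 45.4, 53.4 and 55.3 CPM in the wild-type and 274, 225 and 382 CPM in the transgenic libraries. It rose by 2.52 ± 0.20 with no overlap. Nfe2, an erythroid and megakaryocyte factor, rose by 3.22 ± 0.25, from 21.2 ± 5.37 to 197 ± 49.1 CPM. Erg, an ETS factor of stem cells that is also active up to DN3, rose by 2.12 ± 0.19, from 28.1 ± 2.31 to 122 ± 32 CPM. In the other direction Bcl11a, a zinc-finger factor of multipotent lymphoid precursors, stood at 13.5, 16.8 and 17.9 CPM in the wild-type and 0.0369, 0.037 and 0.116 CPM in the transgenic libraries and fell by 7.90 ± 0.35. Mef2c, a lymphoid priming factor, fell by 5.43 ± 0.49, from 3.96 ± 0.359 to 0.0868 ± 0.085 CPM. The myeloid and B-lymphoid factor gene Spi1 was at 1.28 ± 0.682 and 0.813 ± 0.0742 CPM and did not pass the test. In edgeR's quasi-likelihood test (Benjamini-Hochberg) the adjusted p was 3.82e-05 for Kit, 6.62e-05 for Nfe2, 6.93e-05 for Erg, 2.14e-06 for Bcl11a and 7.23e-05 for Mef2c.

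Homeobox genes of the Hoxa cluster, which mark stem and progenitor cells, were lower. Of 11 tested genes of the cluster and its TALE cofactors, 8 fell and 2 rose. Hoxa7 stood at 7.32, 8.75 and 8.49 CPM in the wild-type and 0.111, 0.037 and 0 CPM in the transgenic libraries and fell by 7.23 ± 0.49. Hoxa5 was 3.47, 2.48 and 4.77 CPM in wild type and 0.0739, 0 and 0 CPM in transgenic cells, and Hoxa4 was 1.96, 1.62 and 2.07 and 0, 0 and 0.0386 CPM. Hoxa9, an oncogene in other leukaemias, was 0.462, 0.394 and 0.751 CPM in wild type and had no read in the transgenic libraries. Every transgenic library was below every wild-type library in these 4 genes. Meis3, a cofactor of HOX proteins, rose by 1.62 ± 0.16, from 9.11 ± 0.0659 to 28.1 ± 5.41 CPM.

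Kit is shared with mast cells, and so is Cpa3, the gene of carboxypeptidase A3, which early T-cell precursors also express. Cpa3 stood at 31.2, 38 and 77.1 CPM in the wild-type and 649, 542 and 916 CPM in the transgenic libraries and rose by 3.85 ± 0.40. All 3 transgenic libraries were above the wild-type ones. Of 15 mast-cell and basophil markers in the table, 5 were tested, of which 3 rose and 2 fell. The genes that define mature mast cells were at 0 in both genotypes: Fcer1a, Ms4a2, Mcpt4, Cma1 and Tpsb2 had no read in any of the 6 libraries. Mitf, a melanocyte and mast-cell factor, fell by 4.49 ± 0.78, from 1.22 ± 0.308 to 0.0492 ± 0.0853 CPM.

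Factors of T-lineage commitment were mostly higher. Of 26 tested genes, 18 rose and none fell in the edgeR test, with a median of 0.85 on the log2 scale. The number of falls was also 0 at an unadjusted p under 0.05 and with DESeq2. Counts of genes that rose were 17 to 19 when 1 library was left out and 18 under upper-quartile scaling, with 1 gene that fell when transgenic replicate 2 was left out. The fit of all 40 RNA libraries gave 12 rises. Klf2, a factor of quiescence and of exit from the thymus, stood at 6.82, 8.39 and 16.3 CPM in the wild-type and 83.8, 74.2 and 148 CPM in the transgenic libraries and rose by 3.28 ± 0.41. Sox13, a factor of the gamma-delta lineage, stood at 43.1, 38.2 and 39.8 CPM in the wild-type and 194, 166 and 205 CPM in the transgenic libraries and rose by 2.22 ± 0.11. Runx3, which acts in CD8 and innate lymphocytes, rose by 1.93 ± 0.12, from 57.4 ± 2.33 to 219 ± 28.8 CPM. Bach2, a repressor of effector differentiation, rose by 1.91 ± 0.11, Zfpm1, the GATA cofactor FOG-1, by 1.51 ± 0.10, and Lef1, a relative of TCF-1, by 1.32 ± 0.12. Ikzf1 rose by 1.06 ± 0.12, Ets1 by 0.92 ± 0.12 and Myb by 0.76 ± 0.11. Bcl11b, whose product locks in T-cell identity, was 753 ± 53.1 CPM in wild type and 929 ± 128 CPM in transgenic cells and did not pass the test, nor did Gfi1 and Satb1. In edgeR's quasi-likelihood test (Benjamini-Hochberg) the adjusted p was 0.000944 for Klf2, 4.42e-06 for Sox13, 1.13e-05 for Runx3, 9.69e-06 for Bach2 and 0.0833 for Bcl11b. Sox13 lost its call in the fit of all 40 RNA libraries (adjusted p 0.132 in that edgeR test). Klf2, Runx3 and Bach2 kept theirs.

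Notch genes moved both ways, as did the genes tested as a whole (23.4% higher and 22.2% lower). Of 30 tested genes, 10 rose and 8 fell, and 6 rose when wild-type replicate 1 was left out. Notch1, the main receptor of early T cells, stood at 1288, 1728 and 1402 CPM in the wild-type and 2048, 2594 and 1984 CPM in the transgenic libraries. The libraries did not overlap, and the change of 0.58 ± 0.15 passed the test except when wild-type replicate 1 or 3 was left out (adjusted p up to 0.0622 in edgeR's quasi-likelihood test (Benjamini-Hochberg)). Notch3, itself a Notch1 target, stood at 412, 718 and 507 CPM in the wild-type and 350.3, 363 and 333 CPM in the transgenic libraries. Its change of -0.65 ± 0.18 passed except when transgenic replicate 1 or 3 was left out (adjusted p up to 0.0566 in the same edgeR test). The coactivator gene Maml1 rose by 1.12 ± 0.15 and the DNA-binding subunit gene Rbpj by 0.77 ± 0.11. Among targets, Dtx1 rose by 0.65 ± 0.17 and Heyl by 2.75 ± 0.33. Hes1 fell by 0.77 ± 0.15, from 113 ± 21 to 66.7 ± 7.99 CPM, and Ptcra fell by 3.11 ± 0.35. Dtx3, a relative of Dtx1, fell by 1.61 ± 0.14, from 171 ± 20.1 to 55.8 ± 8.29 CPM. Il2ra, also Notch-responsive, changed by 0.34 ± 0.11, a call that held in 1 of 6 fits with a library left out (adjusted p up to 0.168 in edgeR's quasi-likelihood test). Myc, Hes5 and Nrarp did not pass.

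Of 18 tested genes that mark the DN3 stage, 5 rose and 8 fell, with 3 rising when wild-type replicate 1 or 3 was left out. In the fit of all 40 RNA libraries none rose and 4 fell. Genes of rearrangement and of the pre-TCR were among the lower ones. Ptcra stood at 224, 195 and 212 CPM in the wild-type and 16.1, 39.5 and 17.5 CPM in the transgenic libraries, with an adjusted p of 0.000562 in edgeR's quasi-likelihood test (Benjamini-Hochberg). Rag2 stood at 122, 138 and 126 CPM in the wild-type and 8.79, 20.6 and 20.4 CPM in the transgenic libraries and fell by 2.95 ± 0.30. In both genes every transgenic library was far below every wild-type library. Rag1 stood at 731, 961 and 691 CPM in the wild-type and 207, 496 and 456 CPM in the transgenic libraries. Its change of -1.04 ± 0.31 passed the test, but not when any single wild-type library was left out (adjusted p up to 0.103 in the same edgeR test). Spib, an ETS factor of early thymocytes, fell by 2.28 ± 0.16, from 49 ± 6.86 to 10.1 ± 1.72 CPM. Dntt, which encodes the terminal transferase that adds bases at joints, was 2142 ± 163 and 2132 ± 364 CPM and did not pass. In the list of 15 recombination genes, 2 rose and 4 fell. Those that rose were 1 when wild-type replicate 1 or 3 or transgenic replicate 1 or 2 was left out, and those that fell were 2 without wild-type replicate 1 or 3. Beside the Rag genes, Dclre1c, the gene of the hairpin-opening nuclease Artemis, fell by 0.82 ± 0.12, from 58.7 ± 7.33 to 33.3 ± 1.12 CPM.

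Receptor signalling genes rose more often than they fell. Of 44 tested genes of CD3 chains and proximal signalling, 24 rose and 8 fell, with a median of 0.43. Zap70, the kinase that docks on CD3 chains, stood at 78.1, 61.7 and 65.6 CPM in the wild-type and 197, 223 and 225 CPM in the transgenic libraries and rose by 1.65 ± 0.12, with an adjusted p of 2.34e-05 in edgeR's quasi-likelihood test (Benjamini-Hochberg). Ubash3b, a phosphatase that restrains it, rose by 3.15 ± 0.21, from 2.97 ± 0.56 to 26.3 ± 5.38 CPM. Rasgrp1, an activator of Ras, rose by 1.58 ± 0.14 and Plcg1, the phospholipase, by 1.02 ± 0.21. The Src-family kinase Fyn rose by 1.14 ± 0.10 and its relative Lck fell by 0.57 ± 0.11. Among CD3 chains, Cd3g and Cd3d were lower, the latter by -0.57 ± 0.14 on the log2 scale, and Cd3e and Cd247 did not pass.

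Genes that rise after beta-selection were largely higher. Of 20 tested genes of the DN4 and DP stages, 11 rose and 2 fell, with 4 falls under upper-quartile scaling, 1 fall without wild-type replicate 1 and 6 rises in the fit of all 40 RNA libraries. The surface proteins Cd6, Cd5 and Cd2 rose by 2.54 ± 0.11, 1.81 ± 0.16 and 2.52 ± 0.31, with Cd6 at 29.5, 30.9 and 30.2 CPM in the wild-type and 164, 166 and 196 CPM in the transgenic libraries. Tox, a nuclear factor of positive selection, rose by 1.13 ± 0.12, and Cd27 rose by 0.64 ± 0.11. Coreceptor levels were low in absolute terms: Cd8a rose by 2.53 ± 0.40, from 9.04 ± 3.18 to 52.1 ± 22.6 CPM. Cd4 was 2.85, 14.3 and 7.66 CPM in wild type and 7.61, 31.4 and 22.6 CPM in transgenic cells, overlapped and did not pass the test. Ccr9, a chemokine receptor of thymic settling, stood at 128, 194 and 153 CPM in the wild-type and 23.4, 19.9 and 13.5 CPM in the transgenic libraries and fell by 3.06 ± 0.23. Arpp21, high in DP cells, did not pass.

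Immediate-early genes, which respond to signals within minutes, were mixed. Of 24 tested, 11 rose and 3 fell. Zfp36, an RNA-decay factor, rose by 1.25 ± 0.18, Ier2 by 1.07 ± 0.16 and Nr4a2, an orphan nuclear receptor, by 1.61 ± 0.31, whereas Egr2 fell by 1.12 ± 0.26, from 5.45 ± 0.863 to 2.51 ± 0.681 CPM. Fos varied widely between libraries, at 1.93, 0.276 and 4.96 CPM in the wild-type and 2.03, 16.4 and 20.3 CPM in the transgenic libraries, and did not pass. Dual-specificity phosphatases, many of which switch off MAP kinases, gave 9 rises and 2 falls in 16 tested genes. Dusp7 rose by 1.15 ± 0.13, Dusp5 by 1.19 ± 0.14 and Dusp6 by 1.38 ± 0.21, and Dusp15 fell by 2.46 ± 0.34.

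In cytokine signalling, Stat3, Stat5a and Stat5b were higher and the feedback inhibitor genes Socs1, Socs3 and Cish lower. Of 29 tested genes of the common gamma-chain receptors and JAK-STAT signalling, 14 rose and 4 fell, and 9 rose without wild-type replicate 1 or 3. Stat3 stood at 154, 191 and 175 CPM in the wild-type and 617, 532 and 598 CPM in the transgenic libraries and rose by 1.75 ± 0.12. Stat5a stood at 197, 213 and 210.0 CPM in the wild-type and 609, 539 and 628 CPM in the transgenic libraries and rose by 1.52 ± 0.11, and Stat5b rose by 1.24 ± 0.11. In each of the 3 genes every transgenic library was above every wild-type library. Among receptor genes, Il9r rose by 2.20 ± 0.40, Il4ra by 1.36 ± 0.27 and Il6st, the gp130 chain of the IL-6 receptor, went from 48.7 ± 19.7 to 138 ± 12.2 CPM. The kinase gene Jak3 rose by 1.08 ± 0.13. Socs3 stood at 57.2, 60.8 and 59.5 CPM in the wild-type and 19.6, 15.1 and 18.4 CPM in the transgenic libraries and fell by 1.74 ± 0.12. Cish fell by 1.64 ± 0.25, from 54.4 ± 6.4 to 17.5 ± 6.46 CPM, and Socs1 fell by 1.20 ± 0.17, from 82 ± 15 to 35.8 ± 6.21 CPM. Il7r was 114 ± 9.48 and 141 ± 25 CPM and did not pass, nor did Bcl2. In edgeR's quasi-likelihood test (Benjamini-Hochberg) the adjusted p was 1.92e-05 for Stat3, 2.04e-05 for Stat5a, 2.32e-05 for Socs3 and 0.0979 for Il7r.

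Other interleukin genes moved both ways, with 15 rises and 10 falls in 36 tested genes of interleukins and their receptors. Il12rb2, a chain of the IL-12 receptor, went from 46.5 ± 8.45 to 270.3 ± 27.1 CPM, a log2 change of 2.54 ± 0.15. Il12rb1, its partner chain, changed by 1.86 ± 0.19, Il15 by 3.79 ± 0.44 and Il34 by -4.39 ± 0.35. In the TNF and TNF receptor families 1 of 21 tested genes rose and 6 fell, with 2 rises and 10 falls when transgenic replicate 2 was left out. The riser was Tnfsf10, the gene of the death ligand TRAIL, at 30.4, 40.7 and 32.3 CPM in the wild-type and 163, 177 and 225 CPM in the transgenic libraries, a change of 2.45 ± 0.16. Tnfsf11, the gene of RANKL, which supports thymic epithelium, fell by 1.62 ± 0.33, from 7.56 ± 0.277 to 2.46 ± 1.09 CPM.

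Innate sensing genes were largely lower. Of 17 tested inflammasome genes, 10 fell and 5 rose, with a median of -1.20 on the log2 scale. Casp1, the protease that matures IL-1 family cytokines, stood at 13, 13.4 and 15.9 CPM in the wild-type and 0.185, 0.111 and 0.27 CPM in the transgenic libraries and fell by 6.20 ± 0.30, with an adjusted p of 3.55e-06 in edgeR's quasi-likelihood test (Benjamini-Hochberg). Its transgenic libraries were all under 1 CPM. Nlrp1b, an inflammasome sensor, fell by 2.24 ± 0.24, from 5.39 ± 0.716 to 1.14 ± 0.0159 CPM, and the adaptor gene Card9 fell by 3.04 ± 0.40, from 7.05 ± 0.983 to 0.852 ± 0.456 CPM. Casp4 was 1.43, 0.827 and 1.65 CPM in wild type and 0.0369, 0 and 0.0386 CPM in transgenic cells. Gsdme, a pore-forming gasdermin, rose by 2.40 ± 0.27, from 3.15 ± 0.0786 to 16.7 ± 5.99 CPM. The sensor genes Naip2, Naip5 and Naip6 were also higher, but they are near-identical copies, so their reads may be split among them.

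MHC class I genes fell at the classical loci. Of 26 tested genes of class I and antigen processing, 11 fell and 4 rose, and 7 fell and 2 rose without wild-type replicate 3. H2-K1, a classical heavy chain, stood at 460.0, 401 and 546 CPM in the wild-type and 166, 97.5 and 111 CPM in the transgenic libraries and fell by 1.91 ± 0.21, and H2-D1 fell by 1.28 ± 0.17, from 377 ± 40.1 to 156 ± 36.9 CPM. Nlrc5, the transactivator of class I genes, fell by 1.20 ± 0.16, from 32.3 ± 5.16 to 14.1 ± 1.79 CPM. The non-classical H2-Q7 fell by 4.82 ± 0.18, from 47.1 ± 8.86 to 1.66 ± 0.0773 CPM, and H2-Q4 by -1.31 ± 0.10 on the log2 scale. The H2 genes are close copies, so the split of reads among them is uncertain. Among 46 interferon-stimulated genes tested, 19 fell and 6 rose, with a median of -0.42. Iigp1, an interferon-inducible GTPase, stood at 18.4, 18.1 and 19.6 CPM in the wild-type and 1.81, 3.22 and 1.2 CPM in the transgenic libraries and fell by 3.17 ± 0.31. Gbp9 fell by 1.17 ± 0.12, with the same caution on copies. Oas3, an RNA-sensing enzyme, rose by 1.22 ± 0.14. Irf1, Irf7 and Irf9, regulators of the response, did not pass.

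Cell-cycle entry genes moved one by one. Of 28 tested CDK inhibitors and entry genes, 6 rose and 4 fell. Besides the loss of Cdkn1a, Cdkn2a, the tumour suppressor locus of p16 and p19ARF, was 0.0385, 0.0394 and 0 CPM in wild type and 2.36, 1.96 and 1.74 CPM in transgenic cells, with 2 wild-type reads in all. Ccnd3, the cyclin D that pre-TCR signals depend on, stood at 374, 319.8 and 385 CPM in the wild-type and 826, 999 and 833 CPM in the transgenic libraries and rose by 1.30 ± 0.13. Rbl2, a relative of the retinoblastoma gene, rose by 1.19 ± 0.16, from 60.7 ± 13 to 138 ± 15.3 CPM, and Cdk6 fell by 0.61 ± 0.12, from 1475 ± 164 to 967 ± 63.5 CPM. Few genes of mitosis and replication passed the test. Of 40 tested, none rose and 4 fell in the edgeR test (Tyms, Gins2, Gmnn and Prim1), with a median of -0.16, and 1 rose at an unadjusted p under 0.05 and 1 with DESeq2. These counts were unstable: without transgenic replicate 2 there were 18 falls, without transgenic replicate 3 there were 6 rises and 2 falls, and without wild-type replicate 1 or transgenic replicate 1 there were 2 falls. Falls numbered 10 under upper-quartile scaling, 8 with DESeq2 and 9 with the replicate number as a block. Tyms, for thymidylate synthesis, fell by 0.87 ± 0.16, from 139 ± 23.1 to 75.7 ± 13.7 CPM, and Mki67 was 568, 804 and 563 CPM in wild type and 436, 817 and 317 CPM in transgenic cells and did not pass.

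Genes of the p53 pathway gave shares near those of all genes. Of 24 tested, 6 rose and 5 fell, with 2 to 4 falls over the fits with 1 library left out (2 without wild-type replicate 3, 3 without wild-type replicate 2 or transgenic replicate 2). Zmat3, a p53-induced RNA-binding protein, rose by 1.96 ± 0.23, from 6.88 ± 0.525 to 26.8 ± 8.36 CPM. Trp53inp1 rose by 0.70 ± 0.11, and Perp was 0.0385, 0 and 0.0376 CPM in wild type and 0.591, 0.592 and 2.08 CPM in transgenic cells, with 2 wild-type reads in all. Mdm2, Bax and Ccng1 did not pass. Of 29 tested genes of the BCL2 family and death receptors, 7 rose and 6 fell, also near the shares of all genes, and 10 fell under upper-quartile scaling. Apaf1, the core of the apoptosome, rose by 0.97 ± 0.16 and Ripk1, a death-receptor kinase, by 0.87 ± 0.11. Mlkl, the effector of necroptosis, fell by 2.54 ± 0.56, from 2.3 ± 0.167 to 0.392 ± 0.33 CPM.

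Genes recurrently altered in T-cell leukaemia were higher more often than lower. Of 40 tested, 16 rose and 5 fell, with 2 falls without wild-type replicate 1 or 3 and 3 without transgenic replicate 2 or 3. Etv6, an ETS repressor, stood at 134, 150.0 and 151 CPM in the wild-type and 384, 361 and 418 CPM in the transgenic libraries and rose by 1.42 ± 0.11. Bcor, a corepressor of Polycomb, rose by 1.43 ± 0.15, from 96.9 ± 19.8 to 261 ± 12.8 CPM. The Polycomb genes Ezh2 and Suz12 and the phosphatase gene Ptpn2 did not pass. Several of the genes that rose (Hhex, Lyl1, Lef1, Stat5b and Jak3) are in other lists too.

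TGF-beta, BMP and Wnt genes gave one of the larger shares of rises, 24 of 40 tested, with 8 falls and a median of 0.60. Wnt5b, a ligand of the non-canonical Wnt pathway, stood at 2.66, 1.14 and 1.84 CPM in the wild-type and 18.4, 24 and 25 CPM in the transgenic libraries and rose by 3.57 ± 0.29. Axin2, a standard target and brake of canonical Wnt signalling, stood at 12.2, 13 and 9.05 CPM in the wild-type and 48.2, 60.2 and 56.3 CPM in the transgenic libraries and rose by 2.26 ± 0.16. Neither gene overlapped between genotypes. Tgfb1 rose by 1.59 ± 0.13, from 150.0 ± 17.9 to 453 ± 48.4 CPM, Smad3, a signal carrier, by 1.35 ± 0.12, and Ski, a SMAD corepressor, by 1.65 ± 0.10. The type I receptor gene Tgfbr1 fell by 0.88 ± 0.11, from 159 ± 18.5 to 86.3 ± 3.51 CPM, while the type II receptor gene Tgfbr2 rose by 0.93 ± 0.13. Bmpr2 fell by 1.95 ± 0.27, from 14.7 ± 2.3 to 3.82 ± 1.28 CPM. In edgeR's quasi-likelihood test (Benjamini-Hochberg) the adjusted p was 4.33e-05 for Wnt5b, 2.32e-05 for Axin2 and 4.31e-05 for Tgfb1.

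Adhesion and homing genes split between integrin chains. Of 30 tested, 12 rose and 4 fell. Itgb7, a chain that pairs with the product of Itga4 or Itgae, stood at 6.66, 10.2 and 15 CPM in the wild-type and 127, 84.5 and 260.2 CPM in the transgenic libraries and rose by 3.89 ± 0.50. Itgal, the LFA-1 chain, rose by 1.28 ± 0.15 and Pecam1 by 1.17 ± 0.17. Itgae, which pairs with the beta-7 chain to bind E-cadherin, fell by 3.51 ± 0.57, from 10.3 ± 4.52 to 0.898 ± 0.663 CPM. Itgb4, a laminin receptor chain, fell by 2.06 ± 0.13, from 103 ± 10.9 to 24.7 ± 2.57 CPM. Of 15 tested chemokine and sphingosine-phosphate genes, 7 fell and 1 rose. The riser was S1pr4, by 1.38 ± 0.16, from 15.3 ± 1.33 to 39.8 ± 7.67 CPM. Beside Ccr9, S1pr3 fell by 5.74 ± 0.43, from 3.59 ± 0.111 to 0.0621 ± 0.0422 CPM. Cxcr4, Ccr7 and S1pr1 did not pass.

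Regulators of gamma-delta and innate-like T cells were divided. Of 14 tested, 6 rose and 6 fell. Rora, a nuclear receptor of innate lymphoid cells, rose by 3.33 ± 0.35, from 2.19 ± 0.785 to 22 ± 7.54 CPM. Etv5, an ETS factor of gamma-delta cells, rose by 1.90 ± 0.16, and Sox4, a partner of Sox13 there, stood at 224, 194 and 194 CPM in the wild-type and 426, 405 and 527 CPM in the transgenic libraries and rose by 1.15 ± 0.13. Maf, a factor of IL-17-producing gamma-delta cells, fell by 3.09 ± 0.38, from 6.05 ± 0.618 to 0.706 ± 0.424 CPM. Tbx21, the gene of T-bet, fell by 2.50 ± 0.67, from 1.14 ± 0.215 to 0.197 ± 0.171 CPM. Constant genes of the T-cell receptor were not analysed here, so no receptor type is given.

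Chromatin regulators of DNA methylation and Polycomb gave 15 rises and 4 falls in 34 tested genes, with 9 rises without wild-type replicate 1 or 3. Dnmt3b, a de novo methyltransferase, rose by 0.85 ± 0.09, and Cbx2, a Polycomb reader, by 0.93 ± 0.11. Tet1 rose by 1.03 ± 0.21 and Tet2, another methylcytosine oxidase, fell by 1.59 ± 0.29, from 26.3 ± 7.75 to 8.76 ± 2.81 CPM. The class II deacetylase genes Hdac5 and Hdac4 moved apart, with Hdac5 at 1.62 ± 0.13 and Hdac4 at -1.36 ± 0.12 on the log2 scale. In the KLF and SP family 10 of 15 tested genes rose and 1 fell. The one that fell was Klf9, by 2.79 ± 0.38, from 11 ± 2.98 to 1.58 ± 0.8 CPM.

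Metabolic lists were mixed, and so were the genes tested as a whole (23.4% higher and 22.2% lower). Of 29 tested peroxisomal and fatty acid oxidation genes, 11 rose and 2 fell, or 4 under upper-quartile scaling. Ppara, a nuclear receptor that switches on this pathway, stood at 0, 0.118 and 0.15 CPM in the wild-type and 6.31, 7.66 and 7.75 CPM in the transgenic libraries and rose by 6.26 ± 0.51, and Acadl, a mitochondrial dehydrogenase of acyl chains, rose by 1.03 ± 0.11. Of 25 tested glycolysis genes, 8 rose and 5 fell, with 5 rises and 3 falls without wild-type replicate 3, 3 falls without wild-type or transgenic replicate 1, and 8 falls under upper-quartile scaling. Hk1, the first enzyme, stood at 119, 133 and 125 CPM in the wild-type and 333, 266 and 372 CPM in the transgenic libraries and rose by 1.37 ± 0.13, while Gapdh, Ldha and Pgk1 did not pass. Of 32 tested cholesterol genes, 6 rose and 2 fell, with 10 rises without transgenic replicate 3 and 5 falls without wild-type replicate 2. In serine, one-carbon and polyamine metabolism 2 of 24 tested genes rose and 7 fell. Mat2a, which makes the methyl donor S-adenosylmethionine, fell by 0.93 ± 0.11, from 499 ± 45.6 to 262 ± 14.5 CPM. Of 80 tested genes of cytosolic ribosomal proteins, 14 fell and 1 rose, the muscle-type copy Rpl3l, with a median of -0.23. That number of falls was 42 without wild-type replicate 2, 3 without wild-type replicate 1 or 3, 1 without transgenic replicate 1 and 2 without transgenic replicate 2, and it was 24 under upper-quartile scaling and 9 with the replicate number as a block.

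Other families moved both ways. Of 202 tested solute carriers, 49 rose and 49 fell, shares near those of all genes. Of 55 tested genes of the Arhgap, Arhgef and Dock families, which regulate small GTPases, 21 rose and 13 fell. Arhgap24 changed by -4.35 ± 0.32, Arhgap31 by 2.65 ± 0.20 and Arhgef18 by 1.48 ± 0.14 on the log2 scale. Of 22 tested ADAM-type proteases, 6 rose and 7 fell, shares not far from those of all genes. Adam19, a sheddase, stood at 0.539, 0.827 and 0.376 CPM in the wild-type and 16.7, 36.5 and 48.5 CPM in the transgenic libraries and rose by 5.86 ± 0.49, and Adamts17, a matrix protease, fell by 2.69 ± 0.22, from 44.1 ± 10.7 to 6.84 ± 1.61 CPM. Of 17 tested semaphorin and plexin genes, 8 rose and 2 fell. Sema4d, an immune semaphorin, rose by 0.87 ± 0.10 and Sema7a fell by 1.45 ± 0.19.

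**Figure D4:**
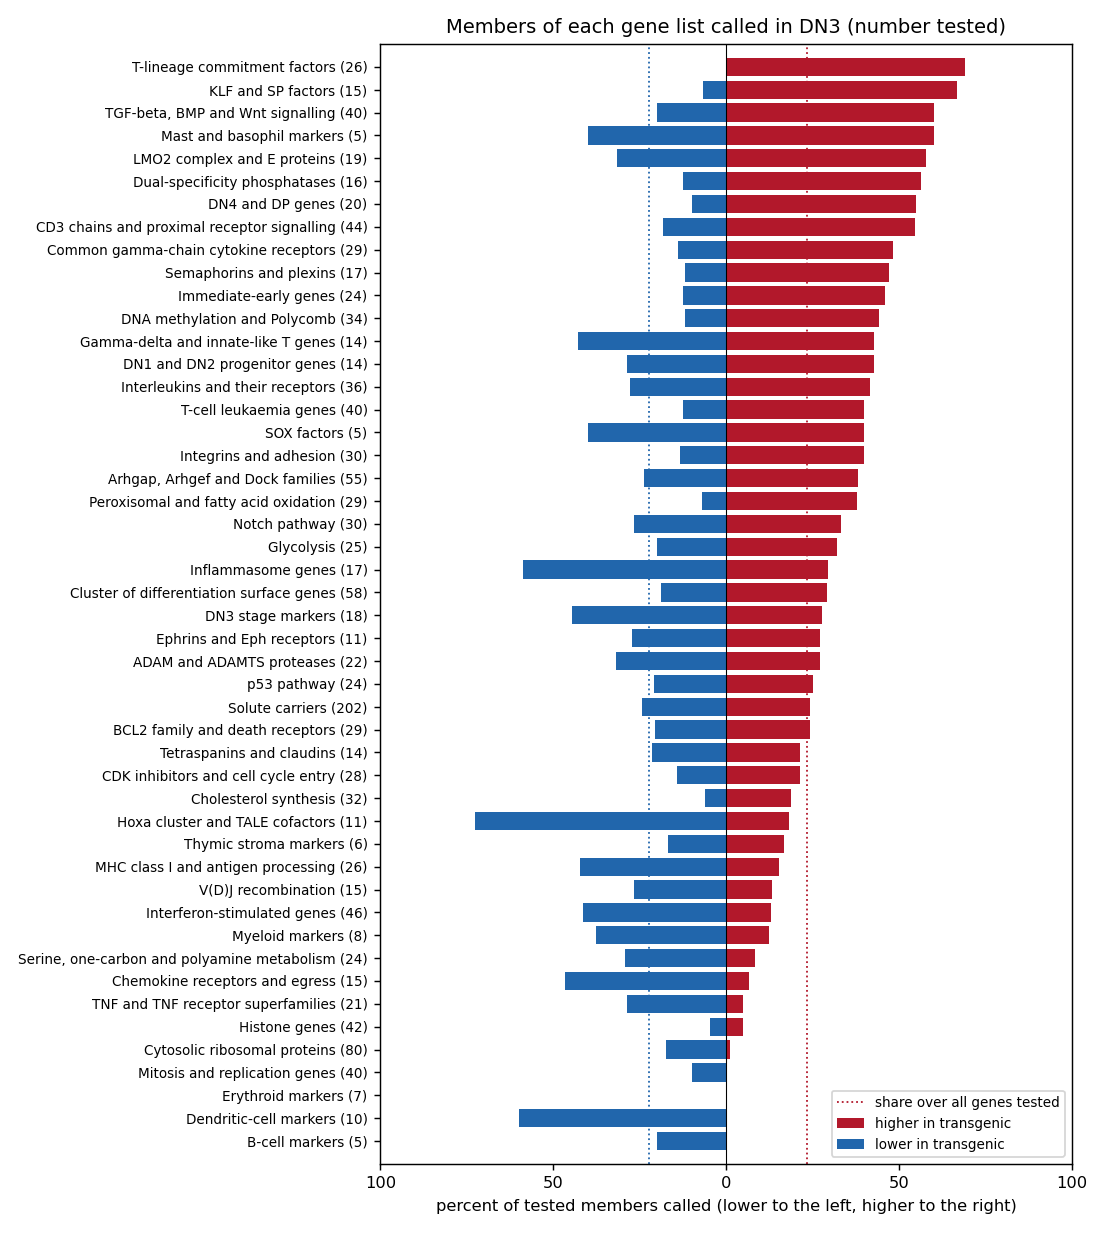
Bars give the percent of tested members of each gene list (number tested in brackets) that were called higher, to the right in red, or lower, to the left in blue, in transgenic DN3 cells, and dotted lines mark the shares over all genes tested, 23.4% and 22.2%. Commitment factors (18 of 26 higher) lie at the top, and Hoxa genes with their cofactors (8 of 11 lower) have the longest bar to the left.

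The double-negative fraction as a whole (total DN, CD4- CD8-) was sequenced in 3 libraries per genotype, with the same genotype and strain labels, and the difference between the DN3 and total DN genotype effects was tested by an interaction term over these 12 libraries. Of 12880 genes tested, 776 (6.02%) passed, 402 with a more positive and 374 with a more negative effect in DN3. The count depended on single libraries. It was 19 without wild-type DN3 replicate 1, 20 without wild-type DN3 replicate 3, 129, 251 and 176 without transgenic DN3 replicate 2, 1 and 3, and 2001 without wild-type DN3 replicate 2. Leaving out total DN libraries gave 112 and 155 (wild-type replicates 2 and 3), 222 and 498 (transgenic replicates 3 and 1) and 2418 (transgenic replicate 2). With DESeq2 it was 2037. Total DN contains DN3 cells, so the 2 effects share a cell type.

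Of the 12 genes named for this comparison, Lmo2 kept its call in every fit that left out 1 library, and each of the others lost it in at least 1. Its genotype effect was 2.30 ± 0.23 in total DN and 6.45 ± 0.30 in DN3. The difference was 4.16 ± 0.36, with an adjusted p of 0.00077 in edgeR's quasi-likelihood test (Benjamini-Hochberg). Lmo2 stood at 4.68, 4.81 and 3.98 CPM in wild-type and 17.1, 29.8 and 19.3 CPM in transgenic total DN. In DN3 its levels were 0.306, 0.235 and 0.224 and 27, 21.2 and 20.1 CPM on the same scale. Its transgenic libraries thus overlapped between the fractions, and its wild-type libraries were lower in DN3. Adam19 stood at 19.3, 25 and 23.5 CPM in wild-type and 6.71, 33.9 and 33.1 CPM in transgenic total DN, where the libraries overlapped. In DN3 they were 0.536, 0.822 and 0.373 and 16.4, 35.9 and 47.6 CPM on the same scale, with no overlap. Cdkn1a stood at 20.6, 23.2 and 30.1 CPM in wild-type and 27, 8.47 and 6.66 CPM in transgenic total DN. Its effect was -0.81 ± 0.55 there and -5.09 ± 0.66 in DN3. Cd8b1, a CD8 coreceptor chain, had opposite signs, -2.79 ± 0.55 in total DN and 1.18 ± 0.53 in DN3. It stood at 121, 122 and 152 CPM in wild-type and 4.34, 32.6 and 19.9 CPM in transgenic total DN. In DN3 it was 13.6, 15.4 and 10.3 CPM in wild-type and 17.8, 37.9 and 33.2 CPM in transgenic cells. Its difference of 3.97 ± 0.76 gave an adjusted p of 0.0248 in edgeR's quasi-likelihood test (Benjamini-Hochberg). The call was lost without wild-type DN3 replicate 1 or 3 for Adam19 (adjusted p up to 0.0606 in that edgeR test) and in 5 of 12 such fits for Cdkn1a and 6 of 12 for Cd8b1 (up to 0.079 and 0.0915).

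**Figure D5:**
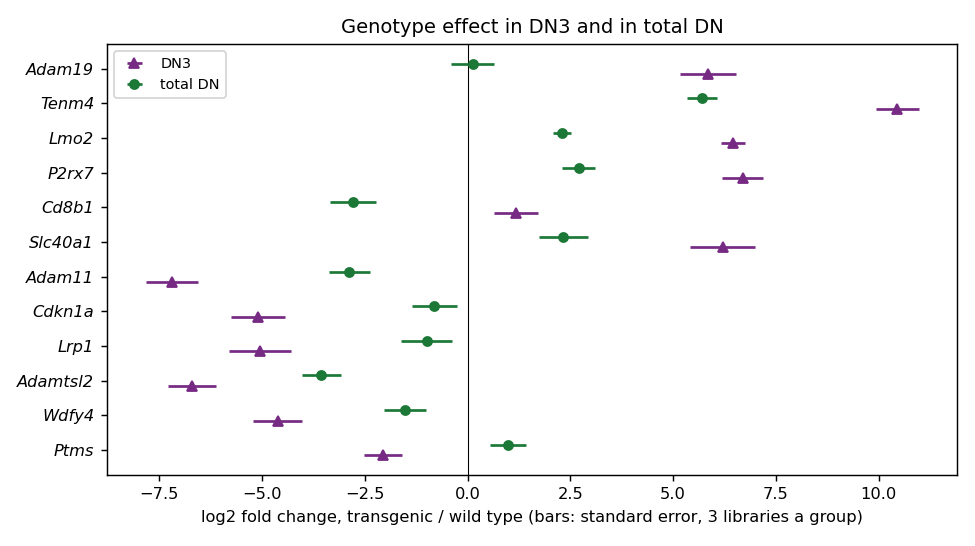
Symbols are log2 fold changes, transgenic over wild type, with bars of 1 standard error, for DN3 (purple triangles) and total DN (green circles), in the 12 genes with the largest called differences above 20 CPM. The Lmo2 effect is 6.45 in DN3 and 2.30 in total DN, and Cd8b1 lies on opposite sides of 0.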

How the data were processed

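RNA of sorted thymocytes was sequenced, and the 6 DN3 libraries were analysed from read counts per gene, which are whole numbers in the table the authors deposited. The authors also deposited FPKM, which served here only to compare levels between genes. Tools named in the submitters' processing notes are HISAT and DESeq2, and Bowtie2 with MACS2. Builds mm10 and mm9 appear there with no role. The counting tool and its strand setting were not given in the sources used here. Chromatin immunoprecipitation was not analysed here, nor were 4 columns that match no listed sample.

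The test was that of edgeR 4.0.16 under R 4.3.3 (filterByExpr with a minimum of 10 reads and a total of 15, TMM scaling, robust quasi-likelihood test, two-sided, prior count 0.125), with Benjamini-Hochberg adjustment over all genes tested and a threshold of 0.05. A change beyond 2-fold was tested with glmTreat of edgeR on the same fit. An interaction term over 12 libraries compared the genotype effect with that in total DN. With 3 libraries per group no exact test on single values can go below a p of 0.1. Simulated counts with known changes served to check both fits. Replicates of a group differed by more than sampling noise. The members and lists were chosen with earlier results of these data known.

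Genes named by rule are Lmo2, then, among called genes without overlap and with at least 20 CPM in the higher group, the 15 largest increases and decreases by fold and the 6 by CPM difference, then up to 4 members per list with the smallest adjusted p, and 6 per direction for the interaction. Predicted genes and receptor segments were left out of the rule. Some genes that the rule names are not reported here. Other list members named were chosen after their values were seen. After their members were matched, the name patterns for ribosomal proteins and for KLF and SP factors were narrowed to drop genes that only share a prefix. Because 25 symbols of the deposited table had turned into dates, genes were followed by identifier. Alternatives were DESeq2 1.42.0, RLE and upper-quartile scaling, no filter, a replicate block, a fit of all 40 RNA libraries and leaving out each library.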

Additional observations from a re-analysis of the deposited data

Results flagged for a closer look

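The genotype effect in DN3 cells was set against that in total DN cells, and 776 genes had a difference past an adjusted p of 0.05 in the interaction test of edgeR. Described here are the 12 named by rule, the 6 largest differences in each direction among genes of at least 20 CPM in a group. The values below are the DN3 effect minus the total DN effect, on the log2 scale with the standard error, and no explanation was tested. More positive in DN3 were Adam19 (5.72 ± 0.85), Tenm4 (4.76 ± 0.72), Lmo2 itself (4.16 ± 0.36), the ATP-gated channel gene P2rx7 (3.99 ± 0.58), Cd8b1 (3.97 ± 0.76) and the iron exporter gene Slc40a1 (3.87 ± 0.95). For Tenm4, Lmo2, P2rx7 and Slc40a1 both fractions had an increase, with a larger fold in DN3. In each of these genes every wild-type DN3 library was below every wild-type total DN library. Their transgenic libraries overlapped between the fractions. P2rx7, with effects of 6.69 ± 0.50 against 2.70 ± 0.40, was 29.6, 35.3 and 63 CPM in wild-type total DN. In wild-type DN3 it was 1.76, 2.39 and 2.05 CPM. For Adam19 the total DN effect was 0.12 ± 0.52, and for Cd8b1 it was below 0.

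More negative in DN3 were Adam11 (-4.33 ± 0.77), Cdkn1a (-4.29 ± 0.82), Lrp1 (-4.05 ± 0.94), Adamtsl2 (-3.15 ± 0.70), Wdfy4, a gene of antigen cross-presentation (-3.11 ± 0.75), and Ptms, which encodes parathymosin (-3.05 ± 0.63). Ptms had opposite signs, 0.99 ± 0.43 in total DN and -2.06 ± 0.46 in DN3. Over 12 fits that each left out 1 library, Lmo2 kept its call in 12, Tenm4 in 11 and Adam19, P2rx7 and Adam11 in 10. Cdkn1a kept it in 7, Cd8b1 in 6, Ptms in 5, Lrp1 and Adamtsl2 in 4, and Slc40a1 and Wdfy4 in 3.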

How the results depend on the processing

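Depth and the 3 libraries per genotype limit what could be tested: 12037 of 19521 genes had enough reads, and the spread between libraries rests on 3 values a group. The number of changed genes was 5493 with RLE scaling, 5935 with upper-quartile scaling, 5521 without a filter, 5802 with DESeq2 1.42.0, 2644 in one fit of all 40 RNA libraries and 3802 to 6185 when 1 library was left out. For changes beyond 2-fold the numbers were 901, 929, 944, 713, 424 and 664 to 926. The interaction with total DN gave 776 genes, and 768, 810, 620, 2037, 43 and 19 to 2418 under the same alternatives. The fit of all RNA libraries takes its spread from every stage, and the cause of its lower counts was not tested. Replicate numbers are shared by the genotypes, and deviations of same-numbered libraries from their group mean correlated at -0.17, 0.06 and 0.23. With 3 libraries per genotype these values cannot settle whether the numbers pair the libraries. With the number as a replicate block, 5176 genes changed, 857 beyond 2-fold, and 483 passed in the interaction. Not every library correlated best with its own number. None of the alternatives reversed a named gene. Of 208 genes named by rule and called in DN3, 194 kept the call in all 6 fits that left out 1 library, 151 in the 6 other alternatives and 150 in all 12. The fit of all RNA libraries lost 57 of them. Of 615 called list members, 445 kept the call in all 6 fits that left out 1 library. In 98 counts of list members that rose or fell, 165 values moved by more than 1.5 times over the 12 alternatives.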
